A study of Caenorhabditis elegans with 2 samples.

Results

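The microRNA genes of the worm *Caenorhabditis elegans* were described by the UNC-39 ChIP-seq peaks at and upstream of them in mixed-stage embryos. All nuclear genes annotated as microRNA in Ensembl on assembly WBcel235 were taken, which gave 261 loci of 46890 nuclear genes. Each locus was extended by 1000 bp upstream and 200 bp downstream along its strand, and a locus was counted when this window held a peak summit, the position of highest signal in a peak. By chromosome, 33 loci lie on I, 49 on II, 27 on III, 50 on IV, 28 on V and 74 on X.

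The embryos were of strain OP186, with genotype unc-119(ed3) III; wgIs186, where wgIs186 is the transgene insertion that carries eGFP-tagged unc-39; males and hermaphrodites were pooled and the animals' age is not known. There were 2 biological replicates of 1 group, and no untreated, untagged or mutant group to compare them with. The labels give both the eGFP tag and UNC-39 as the target of the precipitation, so which antibody was used is not settled here. Whether binding was measured for the tagged transgene product alone or also for untagged UNC-39 is therefore not known. The peak lists hold no expression values, so the stage and the tissue were not checked against marker genes, and in whole embryos fewer bound cells and a weaker signal per cell cannot be told apart.

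UNC-39, a homeodomain protein of the sine oculis class, regulates transcription and is needed in the worm for mesodermal cells to differentiate and for several cell types to migrate. A microRNA is cut from a hairpin in a longer primary transcript, and its seed, bases 2 to 8 of the mature strand, does most of the pairing with target messenger RNAs, so loci with the same seed form a family. The start of the primary transcript is seldom annotated and may lie far upstream of the hairpin. In C. elegans the mir-35 and the mir-51 families are each needed for embryonic development, with much redundancy among their members, while lin-4 and let-7 time the larval stages.

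The mature sequences below are those of the family on which the called signal centred, mir-51 to mir-56, of mir-90 with mir-62, which shares its seed, and of mir-35 and mir-36 as examples of the other large embryonic family. They are the RefSeq annotation on WBcel235, written 5′ to 3′ with the seed in capitals, and the arm (a for the 5′ side of the hairpin, b for the 3′ side) is the strand that carries the shared seed.
mir-51 (a arm): uACCCGUAgcuccuauccauguu
mir-52 (a arm): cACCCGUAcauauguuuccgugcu
mir-53 (a arm): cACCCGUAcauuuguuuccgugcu
mir-54 (b arm): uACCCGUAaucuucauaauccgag
mir-55 (b arm): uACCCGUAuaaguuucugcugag
mir-56 (b arm): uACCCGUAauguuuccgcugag
mir-90 (b arm): uGAUAUGUuguuugaaugccccu
mir-62 (b arm): uGAUAUGUaaucuagcuuacag
mir-35 (b arm): uCACCGGGuggaaacuagcagu
mir-36 (b arm): uCACCGGGugaaaauucgcaug

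The seed ACCCGUA is on the a arm of mir-51, mir-52 and mir-53 and on the b arm of mir-54, mir-55 and mir-56. The likeness of the whole mature strands varied among pairs, when counted position by position without gaps and with the seed included. The mature strands of mir-52 and mir-53 were identical at 23 of 24 positions compared from the 5′ end, while mir-54 and mir-55 shared 9 of 23 and mir-54 and mir-56 shared 14 of 22.

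The sequence around each of the 4 called summits in microRNA windows is shown because it holds the centre of the signal, 100 bases on either side of the summit, read on the strand of the microRNA from the RefSeq copy of WBcel235. Capitals mark words of 9 bases found in at least 2 of these 4 windows on either strand and, in the mir-90 window, also the matches to GAGAGAGA.
mir-51 (chrIV:11026075-11026275, minus strand): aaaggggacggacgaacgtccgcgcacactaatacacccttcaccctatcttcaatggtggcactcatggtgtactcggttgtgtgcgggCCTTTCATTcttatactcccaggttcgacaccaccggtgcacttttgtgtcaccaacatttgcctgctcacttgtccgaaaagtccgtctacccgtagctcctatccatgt
mir-52 (chrIV:14033955-14034155, plus strand): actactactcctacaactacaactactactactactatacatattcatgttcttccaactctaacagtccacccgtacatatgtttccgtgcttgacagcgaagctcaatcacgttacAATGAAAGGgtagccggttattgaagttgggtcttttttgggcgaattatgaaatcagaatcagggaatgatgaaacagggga
mir-54 (chrX:13145245-13145445, minus strand): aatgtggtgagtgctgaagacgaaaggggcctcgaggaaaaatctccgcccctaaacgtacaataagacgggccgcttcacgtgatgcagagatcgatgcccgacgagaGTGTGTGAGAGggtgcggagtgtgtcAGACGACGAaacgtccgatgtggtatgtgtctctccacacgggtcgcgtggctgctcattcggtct
mir-90 (chrIII:8874288-8874488, minus strand): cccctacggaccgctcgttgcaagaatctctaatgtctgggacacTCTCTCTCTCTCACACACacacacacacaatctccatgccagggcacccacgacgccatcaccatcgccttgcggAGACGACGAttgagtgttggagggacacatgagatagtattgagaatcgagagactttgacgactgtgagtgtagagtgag

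The called regions were the 267 that the authors kept after the irreproducible discovery rate (IDR) filter, which is based on how alike peaks rank between lists. Which lists were compared to set its limit is unknown. By signal, the called regions at mir-51, mir-52, mir-54 and mir-90 ranked 34, 49, 71 and 204 in the called list and also in the pooled list. A call was therefore not taken by itself as evidence that the replicates agreed, and replicate values are given separately. The relaxed lists, which were made as input for that filter and hold background, had 9046 regions for the pooled replicates, 15880 for replicate 1 and 30000 for replicate 2. Peak signal is the authors' own score for each peak. It ran from 44.4 to 172.6 in the called list, from 18.3 to 172.6 in the pooled list, from 9.75 to 87.8 in replicate 1 and from 5.84 to 84.8 in replicate 2. Since no scaling between lists is recorded, signal was compared within a list only, and each rank (1 being the strongest) is that within its own list. The read depth behind these lists is unknown, and with it the precision of a single peak's signal.

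A called summit lay in the window of 6 microRNA loci, mir-51, mir-52, mir-54, mir-55, mir-56 and mir-90. That is 6 of 261, or 2.3% (95% Clopper-Pearson interval 0.848 to 4.94, which covers counting error only), against 1.02% of the 46629 other nuclear genes with the same kind of window. The 6 loci rest on 4 distinct summits, because mir-54, mir-55 and mir-56 share 1. Of these 6 loci, 5 carry the ACCCGUA seed. Outside the mir-51 family 1 of 255 microRNA loci held a called summit, or 0.392% (0.00990 to 2.17).

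Among protein-coding genes the share with a called summit was 1.28%, among snRNA genes 2.33%, among tRNA genes 7.52% and among snoRNA genes 9.54%. The microRNA interval overlaps that of the snRNA genes (0.482 to 6.65) and that of the coding genes (1.13 to 1.44), and lies below those of the tRNA genes (5.56 to 9.90) and the snoRNA genes (6.66 to 13.1). The 15363 piRNA genes, which hold a large part of the other genes, had a share of 0.0911% and lower that of all other genes. These windows differ in length, since a microRNA gene has a median length of 95 bp and a coding gene 2027 bp. With a window of 1000 bp upstream to 300 bp downstream of the 5′ end for every gene, an alternative chosen after the data were seen, the count was 6 microRNA loci again (2.3%), against 0.787% of all other genes and 0.776% of coding genes. No test was made between these classes, whose members overlap one another and share summits.

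**Figure D1:**
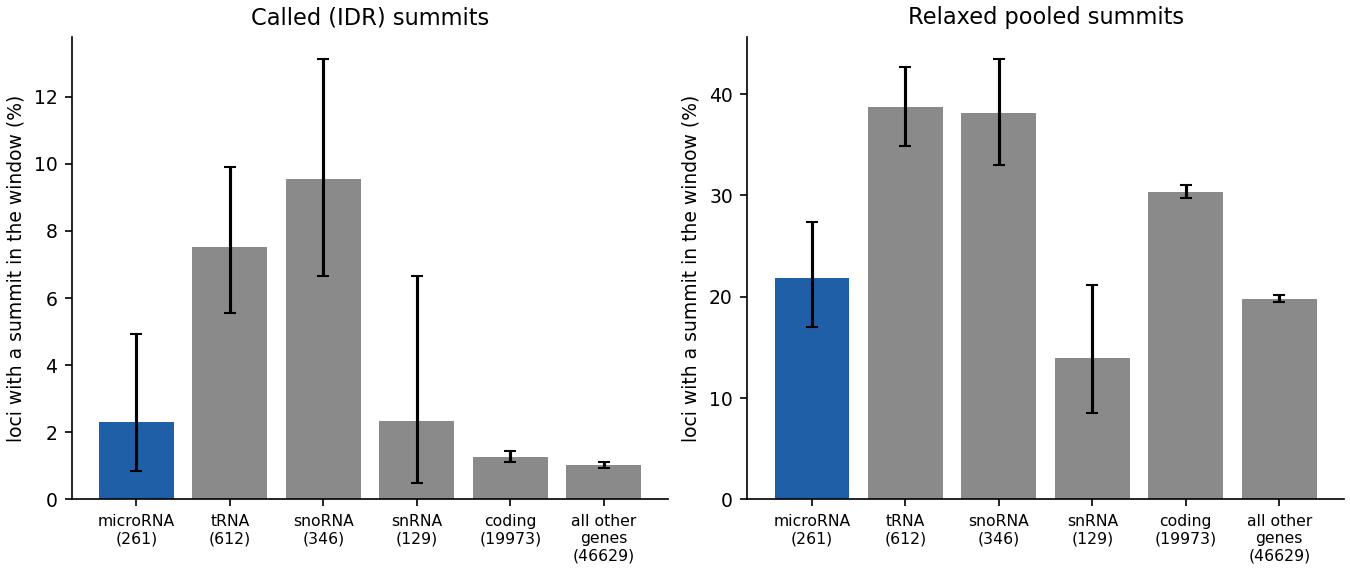
Share of loci (%) whose window holds a summit of the called list (left) or of the pooled relaxed list (right), by gene class, with the number of loci in brackets and 95% Clopper-Pearson intervals as error bars. MicroRNA loci stand at 2.3% in the called list and 21.8% in the pooled list, beside 1.02% and 19.8% for all other genes. The piRNA genes, with 0.0911% and 4.97%, are among all other genes and lower their shares.

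The strongest microRNA region was that of mir-51 (WBGene00003279, chrIV:11026013-11026112, minus strand), an intergenic hairpin. The called region spans chrIV:11025987-11026362 and covers the hairpin, with its summit at 11026175, 63 bp upstream of the annotated 5′ end. Its signal was 82.0 in the called list, rank 34 of 267. The replicate values were 38.99 in replicate 1 (rank 74 of 15880) and 42.9 in replicate 2 (rank 27 of 30000), with summits 28 bp apart. The region was near the top of both replicate lists, and a non-coding RNA gene, F36H1.17, is annotated over the summit. The nearest start of a coding gene, that of hrg-5, was 3010 bp away.

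The mir-52 hairpin (WBGene00003280, chrIV:14034008-14034107, plus strand) is also intergenic. Its called region, chrIV:14033867-14034242, had its summit at 14034055, inside the hairpin and 47 bp from its 5′ end. The signal was 76.0, rank 49 of the called regions. In replicate 1 the peak had 54.3 and rank 20, and in replicate 2 it had 28.7 and rank 107. The replicate 2 summit was 129 bp from that of replicate 1, upstream of the hairpin, the widest such gap among the 4 called regions. The summit lies in an annotated non-coding RNA gene, and the nearest coding start, of Y37A1B.7, was 9725 bp away.

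The hairpins of mir-54, mir-55 and mir-56 (WBGene00003282, WBGene00003283 and WBGene00003284) stand in that order on the minus strand of chromosome X within 404 bp, in an intron of F09A5.3, which is read from the opposite strand. They share the called region chrX:13145157-13145532, with its summit at 13145345. This summit was 251 bp upstream of mir-54, 421 bp upstream of mir-55 and 558 bp upstream of mir-56. The signal was 68.0, rank 71 of the called regions, with 28.5 in replicate 1 (rank 214) and 38.0 in replicate 2 (rank 40), and with replicate summits 32 bp apart. The start of F09A5.3, the nearest coding start, was 3744 bp from the summit. A non-coding RNA gene, F09A5.11, was 74 bp from the summit, nearer than mir-54. The 3 members thus have 1 called summit between them, and their counts are not independent.

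Weaker regions flanked that summit. A pooled region with its summit inside mir-56, 620 bp from the called one, had a signal of 37.1 (rank 513 of 9046), with 22.5 in replicate 1 (rank 527) and 14.4 in replicate 2 (rank 1874). The locus mir-55b, annotated on the plus strand over mir-55, held this region and not the called one. Upstream, 1089 bp from mir-54 and so outside its window, a pooled region had 43.3 (rank 291). In replicate 1 its peak had 32.7 and rank 122, within the first 0.768% of the list. In replicate 2 it had 6.17 and rank 27236, at 90.8% of the way down the list.

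The mir-90 hairpin (WBGene00003318, chrIII:8873987-8874084, minus strand) lies in an intron of K01F9.2 on the same strand. Its called region, chrIII:8874200-8874575, had its summit at 8874388, 304 bp upstream. The signal of 48.3 was rank 204 of 267, the lowest of the 4 microRNA regions. The replicate values were 25.1 in replicate 1 (rank 349) and 20.3 in replicate 2 (rank 435), and the summits were 7 bp apart, the closest of the 4. The start of K01F9.2 was 2740 bp away, and a non-coding RNA gene, K01F9.7, was 310 bp away.

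**Figure D2:**
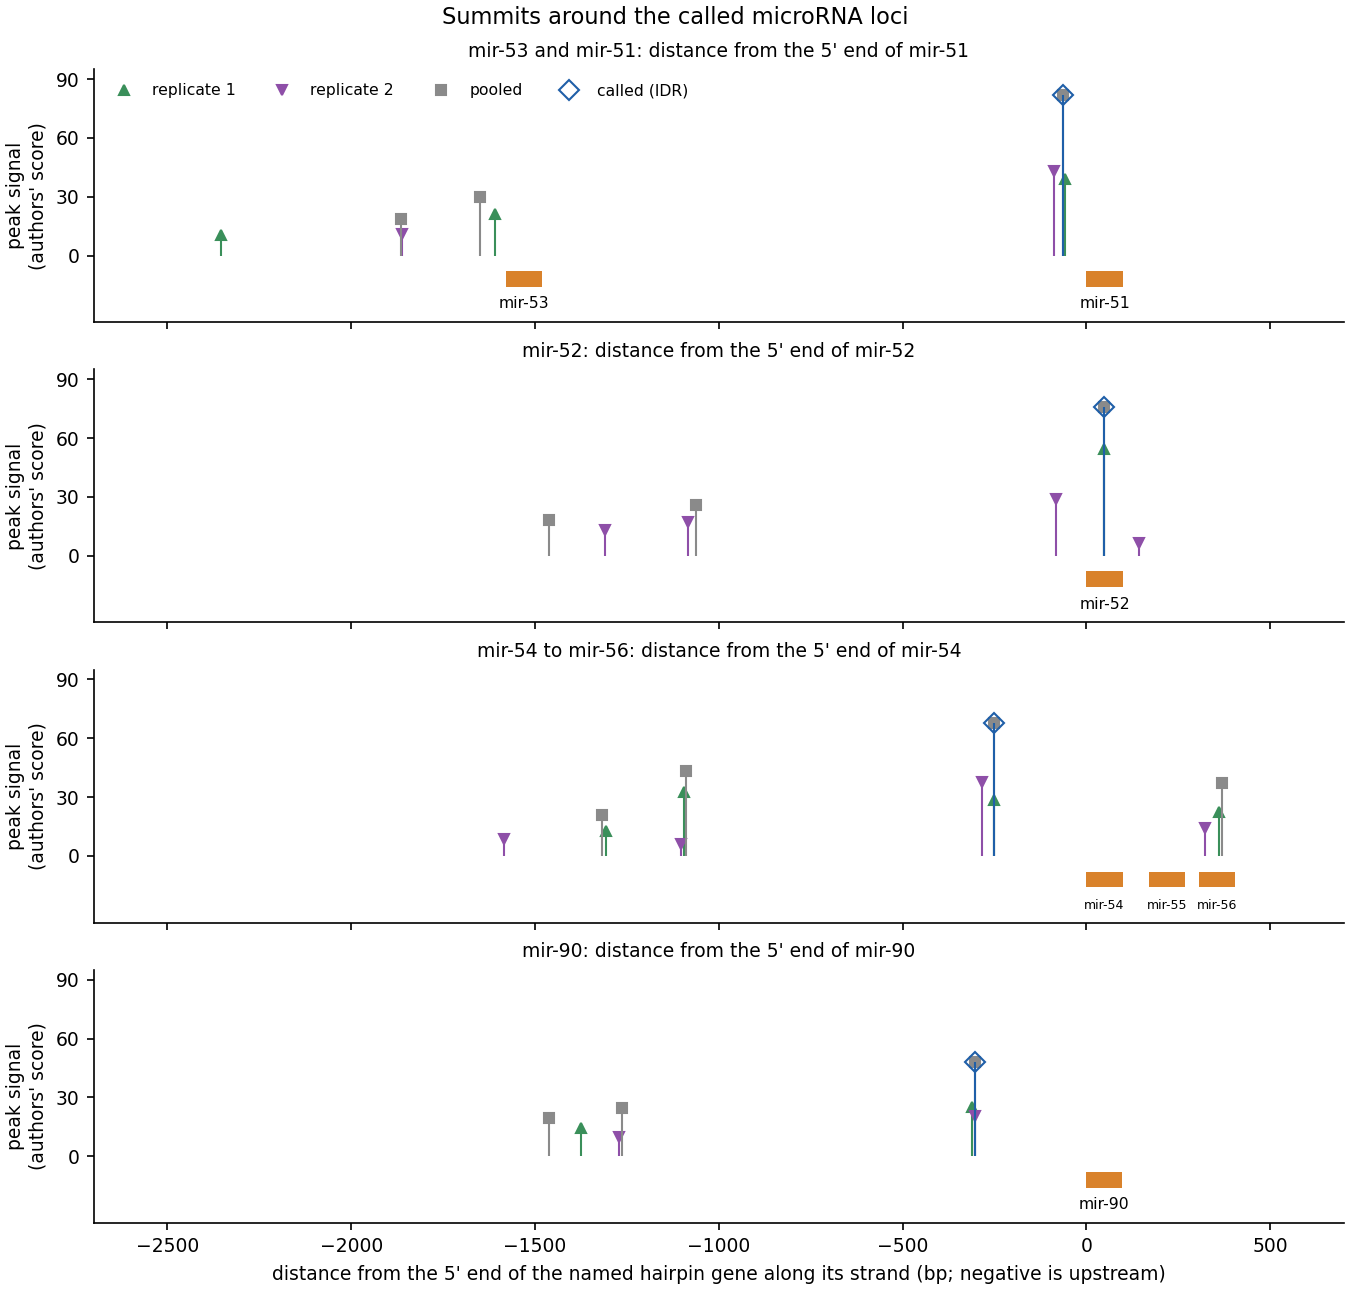
Summits of the 4 lists around the called microRNA loci, by distance from the 5′ end of the named hairpin gene (bp, upstream to the left) and by the authors' peak signal, with hairpins as orange bars. The called summits stand within 304 bp of mir-51, mir-52, mir-54 and mir-90, and mir-53 has pooled and replicate summits of at most 29.6 but no called one.

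The 4 called regions in microRNA windows lay far from coding starts. None of the 4 was within 1000 bp of an annotated start of a coding gene (an interval of 0 to 60.2%), and all 4 were more than 2000 bp away, with a median distance of 3377 bp. Of the 263 other called regions, 146 (55.5%, 49.3 to 61.6) were within 1000 bp and 70 (26.6%, 21.4 to 32.4) were more than 2000 bp away, with a median distance of 780 bp. The nearest tRNA, snoRNA or snRNA gene to any of the 4 was 20179 bp away. The median signal was 72.0 over the 4 and 54.4 over the 263. With 4 regions, these shares are values of these regions and not an estimate for microRNA genes at large.

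Just outside the window limits, a called summit lay 352 bp past mir-1824, 109 bp from the start of the coding gene Y87G2A.18, with a signal of 51.6. Another lay 1593 bp upstream of mir-2215, with a signal of 48.0 and rank 209. Inside the windows, the called summits farthest upstream of a hairpin were those 558 bp from mir-56, 421 bp from mir-55 and 304 bp from mir-90.

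Of the motifs that are frequent among the called regions of this experiment, few were found in the 4 microRNA windows. The search covered both strands of the 4 windows and of the same windows at the other called summits. GAGACGCA was in 0 of the 4 windows, against 29 of 263 other called windows (11%), TGACACC in 0 of 4 against 13 (4.94%), and CAGCTG in 0 of 4 against 24 (9.13%). GAGAGAGA was in 1 of 4, that of mir-90, against 33 of 263 (12.5%). At these shares a count of 0 in 4 windows does not tell the microRNA windows from the others.

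A few words of 9 bases, chosen after the sequences were seen, were shared between the microRNA windows. Most words of this length are rare, and 476 of the 748 different ones in the 4 windows (63.6%) were in none of the 263 others, so such a count sets no word apart. AATGAAAGG was in the windows of mir-51 and mir-52 and in 0 of 263 other called windows. In mir-52 this word lies inside the mature sequence of the b arm, and in mir-51 it lies upstream of the hairpin, read in the opposite direction. AGACGACGA was in the windows of mir-54 and mir-90 and in 4 of the 263 (1.52%). The same pair shared CTCACACAC, which was in 3 of the 263 (1.14%), as well as CTCTCACAC and TCTCACACA, which overlap it and were in 0. No word of 9 bases was common to 3 of the 4 windows. The windows' GC content was 52.2% at mir-51, 40.8% at mir-52, 56.2% at mir-54 and 52.7% at mir-90, beside 47.1% ± 6.36 (SD, n = 263) over the other called windows.

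The remaining member of the family, mir-53, stands 1480 bp upstream of mir-51 on the same strand and had no called summit. Its strongest pooled region had a signal of 29.6, rank 1234 of 9046, with the summit 70 bp upstream of the hairpin. A further pooled region, 286 bp upstream, had 18.7 and rank 8481. Replicate 1 had a peak of 21.3 (rank 670) and replicate 2 a peak of 10.8 (rank 6313), with the replicate 2 summit nearer to the weaker pooled summit than to the stronger one. All 6 family members thus held a summit in the pooled list and in each replicate list, and 5 of 6 held a called one. These members occupy 3 places in the genome, with 3 distinct called and 6 distinct pooled summits among them.

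In the relaxed lists the standing of microRNA loci beside other genes depended on the window and on the class of gene. Over the whole gene and its flanks, a pooled summit was found in 57 windows (21.8%, 17.0 to 27.3) from 48 distinct summits, against 19.8% of all other genes. The piRNA genes, with 4.97%, lower that share of all other genes. By class, snRNA genes had 14%, ncRNA genes 22%, coding genes 30.4%, snoRNA genes 38.2% and tRNA genes 38.7%. With the window fixed at the 5′ end, 57 loci again held a pooled summit, against 12.6% of all other genes and 14.3% of coding genes. In that window piRNA genes had 5.3%, ncRNA genes 21.2%, snoRNA genes 38.2% and tRNA genes 39.1%. Without the mir-51 family, 51 of 255 loci (20%, 15.3 to 25.4) had a pooled summit.

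Replicate 1 had a summit at 63 microRNA loci (24.1%), against 30.5% of other genes, and replicate 2 at 119 (45.6%), against 45.3%. Both replicates had one at 46 loci (17.6%, 13.2 to 22.8), against 22% of other genes. A count for both replicates asks only that each list has a summit somewhere in the window, not that the summits coincide. With the window fixed at the 5′ end the microRNA shares were higher than those of all other genes together. Replicate 1 then had a summit at 64 microRNA loci (24.5%), against 20.3% of other genes, and replicate 2 at 119 (45.6%), against 31.8%. Both had one at 47 (18%, 13.5 to 23.2), against 11.2% of other genes. The piRNA genes lower the share of other genes in both windows. With the fixed window they had 11.5% in replicate 1, 17.3% in replicate 2 and 3.85% in both. Genes of class ncRNA had 28.8%, 46.5% and 18.9%, each within the microRNA interval (19.4 to 30.2, 39.4 to 51.8 and 13.5 to 23.2), and tRNA and snoRNA genes had higher shares. Lower than the microRNA loci were snRNA genes, with 20.9%, 30.2% and 12.4%, and lincRNA genes, with 22.2%, 32.5% and 11.9%. Coding genes had 23.2%, 36.5% and 13.3%. Over the whole gene and its flanks, a summit in replicate 1 alone was found at 17 loci, and in replicate 2 alone at 73. No summit in any of the 4 lists was found at 125 loci. Because the replicate lists differ in length, their shares were not compared with each other.

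The 48 pooled regions in microRNA windows had a median signal of 22.2, against 21.95 for the 8998 other pooled regions. Of the 48, 25 (52.1%, 37.2 to 66.7) were among the 4523 strongest pooled regions, against 4498 (50%) of the others. Leaving aside the 4 called regions, the highest pooled signal in a microRNA window was 38.5 and the median of these 44 was 21.6. The weakest called microRNA region, that of mir-90, had 48.3. Its rank was 204 in both the called and the pooled list, so every pooled region stronger than it was called. That the other microRNA regions lie below it therefore follows from the selection and is no trait of mir-90. The median of the other 44 was close to the pooled list's lowest value of 18.3.

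**Figure D3:**
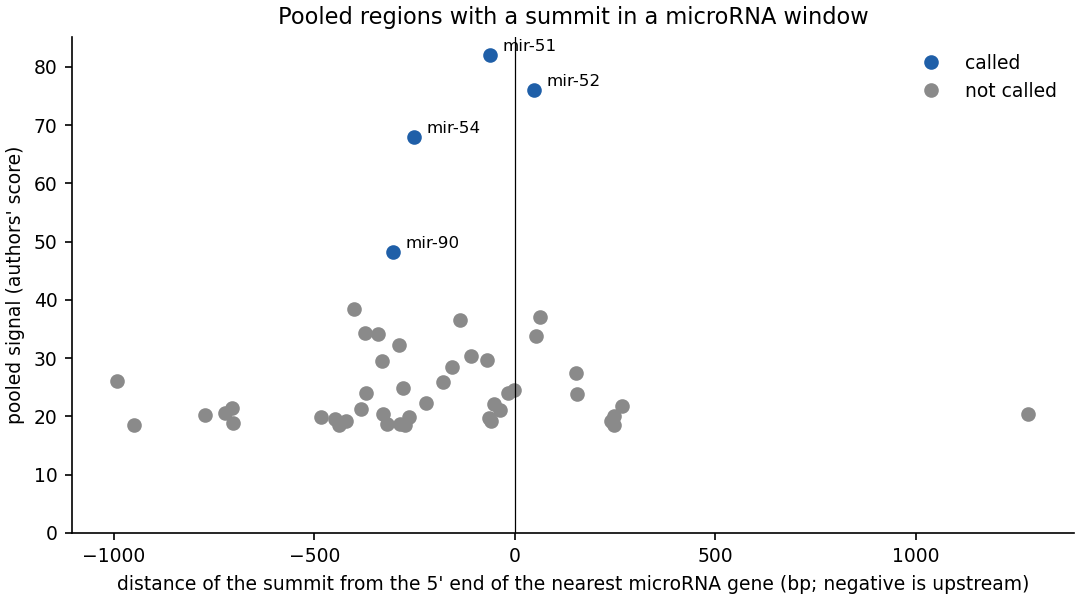
Pooled signal (authors' score) of the 48 pooled regions in microRNA windows by the distance of the summit from the 5′ end of the nearest microRNA gene (bp, upstream is negative). The 4 called regions run from 48.3 to 82.0 and the other 44 from 18.4 to 38.5, at distances on both sides of the hairpin.

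Most of these summits were upstream of the hairpin. Of the 48, 12 were 1 to 200 bp upstream, 20 were over 200 and up to 500 bp upstream and 6 were farther upstream, while 5 were inside the annotated gene and 5 downstream. The window reaches farther upstream than downstream, which by itself favours upstream summits. A microRNA gene was nearer than any coding start for 40 of the 48, a coding start was nearer for 8, and 19 were within 1000 bp of a coding start. A peak of both replicates overlapped 31 of the 48 regions, a peak of replicate 1 alone 4 and a peak of replicate 2 alone 13. Over the 31 regions the replicates' summits were a median of 85 bp apart, and over the 4 called ones a median of 30 bp. At mir-58.1, mir-53, mir-250 and mir-1830 the same replicate peaks overlapped more than 1 pooled region, so their distances enter the median of the 31 more than once.

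**Figure D4:**
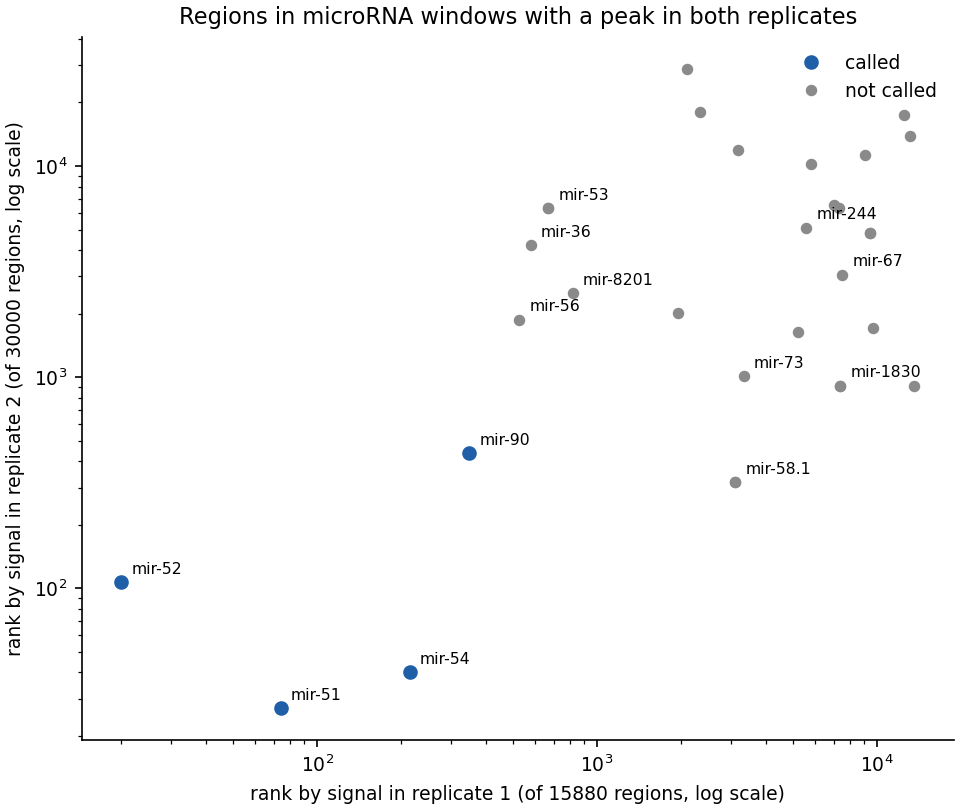
Rank by signal in replicate 1 (x, of 15880) and in replicate 2 (y, of 30000), both on log axes, of the pooled regions in microRNA windows that a peak of each replicate overlaps. The 4 called regions stand at ranks 20 to 349 in replicate 1 and 27 to 435 in replicate 2, and no other microRNA region is within the first 500 in both.

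By shared seed, 109 loci fell into 46 groups and 152 loci shared no seed with another locus or, in 1 case, had no annotated mature sequence. A called summit was found in 2 of the 46 groups and in none of the other 44, and a pooled summit in 19. Every member had a pooled summit in 2 groups, those of mir-51 and of mir-35. The group of mir-90, with seed GAUAUGU, has 3 members, of which 1 was called. Of the other members, mir-62 had a pooled region of 20.2 (rank 6320), 772 bp upstream and 209 bp from the start of its host ugt-50. Nearer to the mir-62 hairpin, replicate 1 had a peak of 15.1 (rank 3236), 207 bp upstream. The strongest replicate 2 peak there had 21.4 (rank 342), 88 bp past the 5′ end. The locus mir-50 had a peak in replicate 2 only (7.76, rank 16771).

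The mir-35 family, with seed CACCGGG, has 8 members in 2 places, mir-35 to mir-41 within 797 bp of chromosome II and mir-42 elsewhere on it. None of the 8 held a called summit, and all 8 held a summit in the pooled list and in each replicate list. This rests on 3 pooled summits. The strongest, inside mir-36, had a signal of 33.9 (rank 710 of 9046), with 21.9 in replicate 1 (rank 579) and 11.9 in replicate 2 (rank 4232). A pooled region 723 bp upstream of mir-35 had 20.6 (rank 5802), and that at mir-42 had 19.8 (rank 6806). The cluster's signal was thus under the lowest called signal, 44.4. Its peak was within the first 3.65% of the replicate 1 list and within the first 14.1% of the replicate 2 list.

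No other group of 4 or more members had a called summit. The group of mir-229, mir-63, mir-64, mir-65 and mir-66, with seed AUGACAC, had pooled summits at 4 of 5 loci, all in the cluster mir-229 to mir-66 in an intron of gcn-1. The cluster's strongest region, 342 bp upstream of mir-229, had a pooled signal of 34.1 (rank 692), a peak of 24.8 in replicate 2 (rank 185) and no peak in replicate 1. The group GGCAAGA had pooled summits at 2 of 6 loci, mir-73 and mir-74, which share a region of 38.5 (rank 452), the strongest microRNA region that was not called. Its values were 14.99 in replicate 1 (rank 3338) and 16.6 in replicate 2 (rank 1010). The mir-2217 loci form 2 groups by the seeds of their arms, and none of these loci had a summit in any list.

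**Figure D5:**
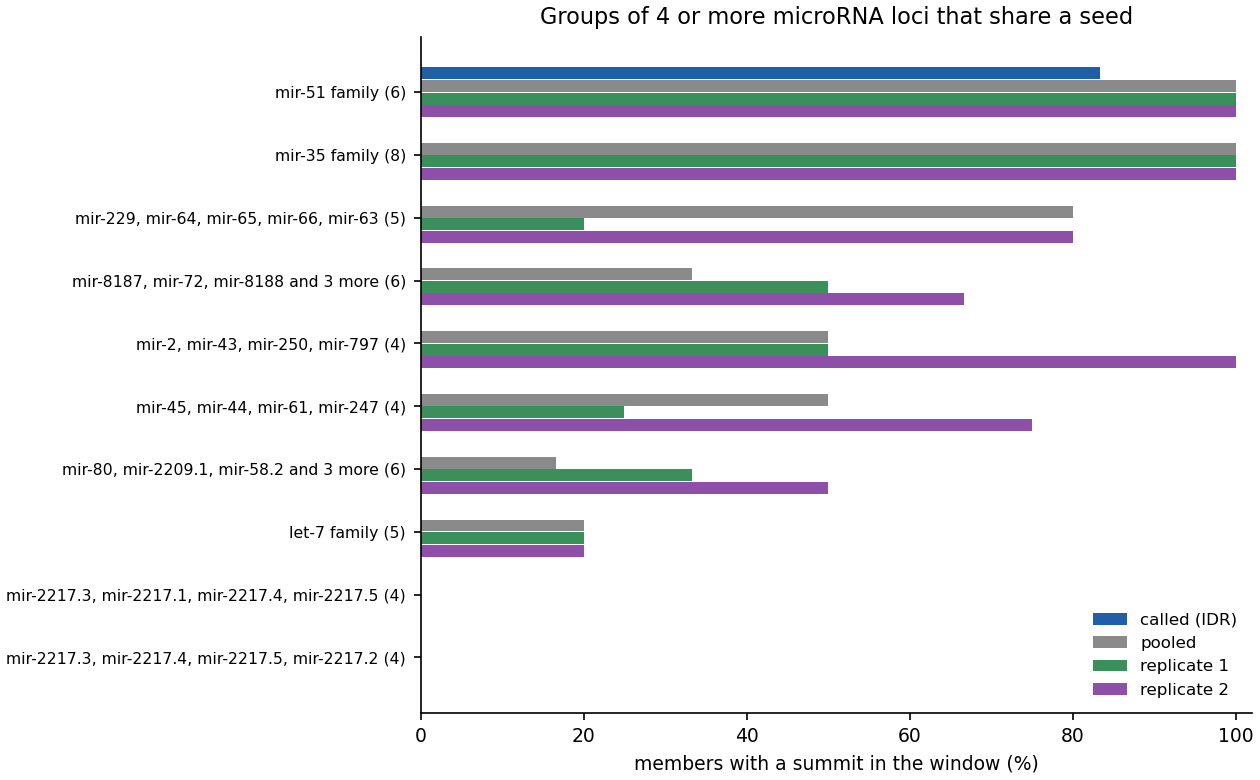
Share of members (%) with a summit in the called, pooled, replicate 1 and replicate 2 lists, for the 10 groups of at least 4 microRNA loci that share a seed (number of members in brackets). The mir-51 family is the one group with called members, 5 of 6, and the mir-51 and mir-35 families have a pooled summit at every member.

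Of the larval timing microRNAs let-7, lin-4, mir-48, mir-84 and mir-241, none had a called summit, and let-7 and lin-4 had a pooled one. In the let-7 group, with seed GAGGUAG, let-7 was the 1 member of 5 with a summit in any list. The let-7 window is longer than those of the other members, since a 1732 bp primary transcript is annotated as the gene. The strongest pooled region at let-7 had 24.0 (rank 3109), 372 bp upstream of this transcript, with 12.5 in replicate 1 (rank 7005) and 10.6 in replicate 2 (rank 6531). A second pooled region, inside the annotated gene and 1280 bp from its 5′ end, had 20.4 (rank 6016). The loci mir-48, mir-84 and mir-241, which act with let-7 in the larva, had no summit in any list. At lin-4 a pooled region had 18.4 (rank 8822), with 12.3 in replicate 2 (rank 3713) and no peak in replicate 1.

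The tissue microRNAs mir-1, of muscle, and mir-124, of sensory neurons, had no pooled summit. A peak of 11.2 was found at mir-1 in replicate 1 (rank 10296), and none in replicate 2. At mir-124 the replicate values were 11.4 (rank 9909) and 6.81 (rank 22489). Of the abundant microRNA mir-58.1, in an intron of Y67D8A.2, the strongest pooled region had 36.6 (rank 534), 138 bp upstream, with 15.2 in replicate 1 (rank 3122) and 21.8 in replicate 2 (rank 319).

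Hairpins at most 10000 bp apart on the same strand formed 29 clusters with 81 hairpins. A called summit was found in 3 clusters, that of mir-53 and mir-51, that of mir-54 to mir-56 and that of mir-90, mir-238 and mir-80, and a pooled summit in 12. Among clustered hairpins 5 of 81 (6.17%, 2.03 to 13.8) held a called summit, and among those standing alone 1 of 180 (0.556%, 0.0141 to 3.06). For pooled summits the counts were 30 of 81 (37%, 26.6 to 48.5) and 27 of 180 (15%, 10.1 to 21.1). Neighbouring hairpins share windows and summits, so these counts are not of independent loci. Without the mir-51 family, 1 of 76 clustered hairpins held a called summit and 25 of 76 (32.9%, 22.5 to 44.6) a pooled one.

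By position, 97 loci lay in an intron of a coding gene, 152 were intergenic and 12 overlapped a coding exon. A called summit was found at 4 intronic loci (4.12%, 1.13 to 10.2), 2 intergenic loci (1.32%, 0.160 to 4.67) and 0 of the 12, which allows a share of up to 26.5%. Of the 4 intronic loci, 3 were mir-54, mir-55 and mir-56 with their shared summit, on the strand opposite to their host, and 1 was mir-90, on the same strand as its host. Pooled summits were found at 34 of 97 intronic loci (35.1%, 25.6 to 45.4) and at 21 of 152 intergenic loci (13.8%, 8.76 to 20.3). Loci in introns on the opposite strand had 14 of 30 (46.7%, 28.3 to 65.7) and those on the same strand 20 of 67 (29.9%, 19.3 to 42.3). The 14 rest on 7 distinct pooled summits, and 10 of them, mir-35 to mir-41 and mir-54 to mir-56, on 4, so they are not independent loci. An intronic window lies in a transcribed gene, and the part of the host genes in this gap was not tested.

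The numbers in the names of the loci, which broadly follow the order of their discovery, also went with the signal, in a split chosen after the values were seen. Loci with a suffix, such as mir-55b, were placed by their number, whenever they were added. The pooled summit of mir-55b is also that of mir-55 and mir-56. Loci with a number under 1000, with let-7, lin-4 and lsy-6, held all 6 called loci among 137 (4.38%, 1.62 to 9.29) and 42 pooled ones (30.7%, 23.1 to 39.1). Loci with later numbers held 0 called among 124, which allows up to 2.93%, and 15 pooled (12.1%, 6.93 to 19.2). The gap was present in introns, at 25 of 44 early-named loci (56.8%, 41.0 to 71.7) and 9 of 53 later-named loci (17%, 8.07 to 29.8), and in intergenic loci at 16 of 87 (18.4%, 10.9 to 28.1) and 5 of 65 (7.69%, 2.54 to 17.0), where the intervals overlap. All 6 members of the mir-51 family and all 8 of the mir-35 family are early-named, and their part in the gap was not tested.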

How the data were processed

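The deposited files used were 4 peak lists on build ce11, whose assembly is WBcel235, made from 2 biological replicates of ChIP-seq. Per the labels' README files, the authors used alignments of each replicate, or of both pooled, and of a control to make the relaxed lists. These gave the IDR list. The signal column holds the authors' deposited score for each peak, and was used only to describe and rank peaks within a list. The sources used here give no aligner, peak caller, setting or read depth. The control and the ce10 lists were not used here, and no coordinates were converted.

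Gene positions came from Ensembl release 115, and names, mature microRNAs and bases from RefSeq on WBcel235 (260 of 261 loci had a mature sequence). Summits were intersected with strand-aware gene windows in Python 3.11.15 with pandas 2.3.3 and numpy 2.4.6; intervals are exact 95% Clopper-Pearson intervals from scipy 1.17.1; figures used matplotlib 3.10.9. The counting was first tested on simulated data with planted summits. With 1 group no test between groups was possible, so counts are set beside those of all other genes. Named loci are those with a called summit, the 10 loci with the highest pooled signal, the mir-51 family, let-7, mir-48, mir-84, mir-241, lin-4, the mir-35 family, mir-1 and mir-124, besides loci named in a count. The members, families and motifs were chosen with earlier results of these data known. Coordinates are 1-based. Other windows, overlap rules, thresholds and single replicates were tried as alternatives.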

Additional observations from a re-analysis of the deposited data

How the results depend on the processing

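The 6 called loci became 2, mir-51 and mir-52, with a window of 200 bp on both sides. With the other windows, overlap rules and exclusions the count was 4 to 7, where 4 counts merged windows (of 226). The same number of strongest peaks as the called list holds gave 5 loci in replicate 1 alone (without replicate 2), mir-51, mir-52, mir-54, mir-55 and mir-56, and 8 in replicate 2 alone (without replicate 1), those 5 with mir-229, mir-64 and mir-65. So mir-90 was in neither, and it was also absent from the 134 strongest called regions, which left 5 loci. The 57 pooled loci became 87 with 2000 bp upstream, 30 with 200 bp on both sides and 36 among the 4523 strongest pooled regions, and ranged from 44 to 59 with single replicates. With hairpins at most 1000 bp apart, 1 cluster in place of 3 held a called summit. With same-strand introns only, 1 intronic locus in place of 4 did. No paired analysis was possible because both replicates belong to 1 group. Depth is unknown, so a locus without a peak may have had signal below the lists' limits.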

Other observations

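Some pooled regions in microRNA windows rested on a peak of 1 replicate. At mir-232 a pooled region of 18.9 (rank 8077) had a replicate 1 peak of 18.2 (rank 1336) and no replicate 2 peak. At mir-5549 a pooled region of 21.2 (rank 5263) had a replicate 2 peak of 12.9 (rank 3105) and no replicate 1 peak.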
